A study of Mus musculus with 9 samples.

Results

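The translation initiation factor genes of mouse hippocampus were described in a series of bulk RNA sequencing libraries from adult BALB/c mice. The genes were chosen by name: counts of RefSeq transcripts were summed per gene symbol, symbols that begin with Eif and a digit were taken, pseudogene names were dropped, and a mean of at least 10 counts over the CTL and SAE libraries was asked for. This left 33 of 57 such symbols, out of 38911 genes in the table. The groups were CCLF (Cuscuta chinensis flavonoids at 200 mg/kg together with cecal ligation and puncture, CLP, an operation that causes sepsis from the gut), SAE (CLP alone) and CTL (sham operation), each with 3 libraries described as biological duplications. All 9 specific pathogen free mice were operated on. The sources used here do not give sex, exact age or the time between surgery and sampling. The p-values measure the spread between these libraries.

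Initiation factors bring the small ribosomal subunit, the initiator tRNA and a messenger RNA together and then let the large subunit join. eIF2 carries the initiator tRNA, eIF2B recharges eIF2 with GTP, eIF3 is the large scaffold on the small subunit, and the eIF4 group binds the cap and unwinds the leader. eIF1, eIF1A, eIF5 and eIF5B act on start codon choice and subunit joining, and eIF6 keeps free large subunits apart from small ones. In the brain, phosphorylation of eIF2 and the sequestering of the cap-binding protein eIF4E by the 4E-binding proteins are the best known points of control, and both act on protein rather than on mRNA level.

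The libraries held 4626519 to 4895474 counts each. The acute-phase gene Lcn2, which sepsis is known to raise in brain, had 13, 14 and 6 counts in the SAE-labelled libraries and 13816, 14822 and 13246 counts in the CTL-labelled libraries (log2 fold −10.31 ± 0.11, edgeR adjusted p = 1.50e-15). Of a list of 12 inflammation genes 8 were tested. Lcn2, S100a8, Cxcl10 and Ccl2 passed the low-count filter only through the CTL-labelled libraries, and Icam1, Hmox1, Cebpd and Ifit1 through both groups. All 8 were lower in the SAE-labelled libraries, which goes against the labels. The groups are therefore called SAE-labelled, CTL-labelled and CCLF-labelled throughout, and every direction below holds for those labels. For most genes the CCLF-labelled columns varied less among themselves than counting error allows: over 3669 genes with a mean of 5 to 20 counts, the median ratio of variance to mean was 0.219 in CCLF-labelled, 1.00 in SAE-labelled and 0.971 in CTL-labelled libraries, where independent counts in 3 libraries give 0.693. Over 2635 genes with 20 to 100 counts the CCLF-labelled ratio was 0.312, and over 1886 genes with 100 to 500 counts it was 0.580. Over the 33 initiation factor genes, most of which have more counts, the median ratio was 1.47 in CCLF-labelled, 1.30 in SAE-labelled and 1.98 in CTL-labelled libraries. Single genes differed from that median. In the CCLF-labelled libraries Eif1ax had 3312, 3321 and 3288 counts and Eif2s1 had 674, 669 and 671, while Eif1 had 5440, 4100 and 4604. The median therefore does not show that each of the 33 is free of the low spread. Of 14 hippocampal neuron markers 13 had at least 1 count, and 6 had a mean under 10 counts. They summed to 8689 to 8979 CPM (counts scaled to library size) in SAE-labelled and 7777 to 7934 CPM in CTL-labelled libraries. Most of that sum was Slc17a7, which averaged 6326 CPM in SAE-labelled and 5625 CPM in CTL-labelled libraries. Of 9 tested 4 rose and 1 fell. Summed oligodendrocyte markers ran from 1334 to 1529 CPM in SAE-labelled and from 893 to 975 CPM in CTL-labelled libraries, and 5 of 6 tested rose. Endothelial markers summed to between 433 and 458 CPM in SAE-labelled and between 299 and 341 CPM in CTL-labelled libraries, with 3 of 4 tested higher and 1 lower. Neutrophil markers summed to between 4.73 and 6.19 CPM in SAE-labelled and between 50.7 and 74.8 CPM in CTL-labelled libraries. Only 2 of the 10 listed were tested, S100a8 (8, 2 and 2 counts in SAE-labelled libraries) and Ngp (3, 4 and 3). Both passed the low-count filter only through the CTL-labelled libraries, so that they were lower is no separate result. S100a8 is also among the 8 inflammation genes. Red blood cell genes summed to between 456 and 563 CPM in SAE-labelled and between 581 and 601 CPM in CTL-labelled libraries, with 2 of 4 tested lower. Summed astrocyte, microglia and choroid plexus markers overlapped between the groups. Of 8 tested microglia genes 6 rose and 1 fell, of 8 tested astrocyte genes 2 rose and 5 fell, and of 6 tested choroid plexus genes 1 rose (Sostdc1, log2 fold 2.99 ± 0.38, named after its value was seen). The part of these markers in the results below was not tested, and in bulk tissue fewer cells of a type and less RNA per cell cannot be told apart.

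Most initiation factor genes with enough counts to measure well were lower in the SAE-labelled than in the CTL-labelled libraries, by modest amounts. Of the 33 genes, 18 fell, 1 rose and 14 did not pass the threshold (edgeR's quasi-likelihood test, Benjamini-Hochberg adjustment over all 8213 genes tested, adjusted p under 0.05). Over all genes tested 23.9% were called lower and 23.7% higher, and 47.6% in either direction. The median log2 fold was −0.40 over the 33 genes and 0.00 over all genes tested. The fold was negative for 28 of the 33. The 18 genes that fell had log2 folds of −1.89 to −0.14, and 15 of the 18 lay between −0.55 and −0.25. Together the 33 genes summed to 8542, 8580 and 8739 CPM in the SAE-labelled libraries, against 10423, 10778 and 10374 CPM in the CTL-labelled libraries. Every SAE-labelled sum lay below every CTL-labelled sum.

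**Figure D1:**
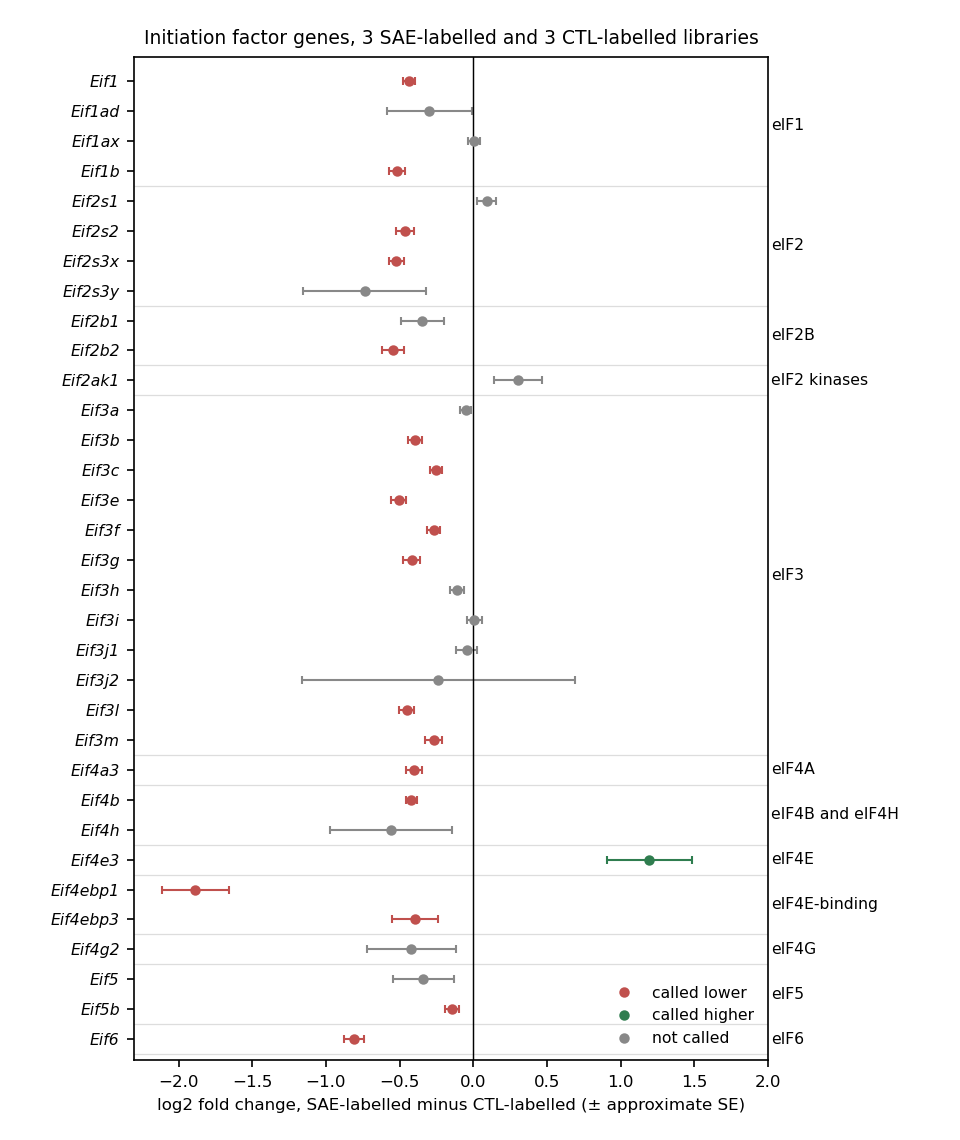
Log2 fold change of the 33 initiation factor genes, SAE-labelled minus CTL-labelled, by factor complex (points, edgeR estimate; bars, approximate standard error; 3 libraries per group). Red points (18 genes) were called lower, the green point (Eif4e3) was called higher, and grey points (14 genes) were not called; Eif4ebp1 lies farthest to the left at −1.89.

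Calls went with depth. Of the 22 genes with a mean of at least 500 counts, 16 fell and 0 rose (edgeR, and 0 higher also at an unadjusted p under 0.05), against 36.5% called lower and 29.2% called higher among the 1762 genes of that depth, and 17 of the 22 had groups that did not overlap, against 71.3%. The 6 of the 22 that were not called had log2 folds of −0.11 to 0.09. Of the 11 with a lower mean, 2 fell (Eif4ebp1 and Eif4ebp3) and 1 rose (Eif4e3). These are 18.2% and 9.09% of the 11, against 23.9% called lower and 23.7% called higher over all genes tested. The 2 that fell are thus close to the share over all genes. No share was taken over all genes with a mean under 500 counts. The limit of 500 counts was chosen after values were seen. The table also splits the family by transcript number: 18 of the 25 genes with 1 RefSeq transcript fell, against 29.3% of all genes with 1 transcript, while of the 8 genes with several transcripts 0 fell and 1 rose (1 was lower at an unadjusted p under 0.05). Of all 3437 genes tested with several transcripts 16.5% were called lower and 21.9% higher, and the counts among the 8 genes are close to these shares. The groups did not overlap in 23 of the 33 genes, 20 of them lower and 3 higher in the SAE-labelled libraries, against 55.7% of all genes tested.

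**Figure D2:**
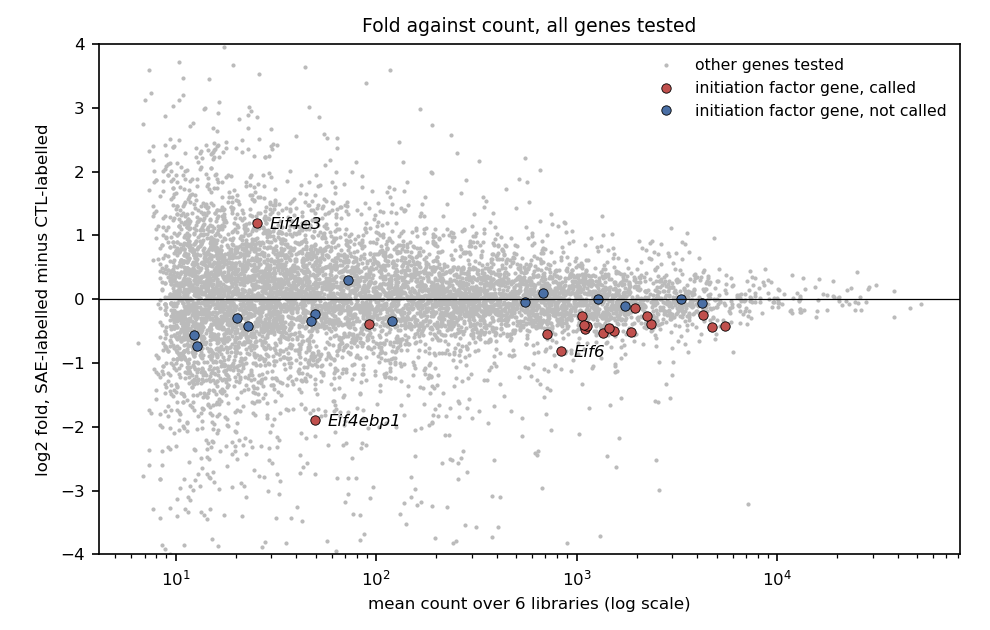
Log2 fold (SAE-labelled minus CTL-labelled) against the mean count over 6 libraries, on a log scale, for all 8213 genes tested; initiation factor genes are drawn large, red if called and blue if not, and 76 other genes lie beyond the axis limit of 4. At the high-count end most of the red points sit just under 0, while Eif4ebp1, Eif6 and Eif4e3 stand apart.

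The eIF1 group holds the factors that keep the small subunit open while it scans for a start codon. Eif1, which encodes eIF1 itself, had 836, 846 and 873 CPM in the SAE-labelled libraries, against 1082, 1210 and 1132 CPM in the CTL-labelled libraries. It fell by 0.43 ± 0.04 on the log2 scale (± SE, adjusted p = 5.10e-09). Its near-identical paralog Eif1b fell with it: 317, 324 and 329 CPM in SAE-labelled against 466, 493 and 419 CPM in CTL-labelled libraries (−0.52 ± 0.05, adjusted p = 2.28e-08). In both genes all SAE-labelled values lay below all CTL-labelled values. Eif1ax, the X-linked gene of the partner factor eIF1A, was not called. It averaged 699 ± 21.3 CPM in SAE-labelled and 692 ± 4.22 CPM in CTL-labelled libraries (SD, n = 3; 0.00 ± 0.04, adjusted p = 0.959), and with DESeq2 size factors its log2 fold was −0.0015. Eif1ad, a gene with an eIF1A-like domain, had 16 to 20 counts in SAE-labelled and 20 to 24 counts in CTL-labelled libraries (−0.30 ± 0.29, adjusted p = 0.415). RefSeq lists pseudogenes of Eif1 that are no rows of the count table, so reads from such copies could not be told apart from Eif1.

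Among the subunits of eIF2, the carrier of the initiator tRNA, the beta and gamma genes fell and the alpha gene was not called. Eif2s3x, the X-linked gamma subunit gene, had 234, 244 and 227 CPM in the SAE-labelled libraries, against 336, 337 and 331 CPM in the CTL-labelled libraries. No values of the groups overlapped (−0.52 ± 0.05, adjusted p = 6.14e-09). Eif2s2, the beta subunit gene, averaged 195 ± 6.57 CPM in SAE-labelled and 267 ± 26.2 CPM in CTL-labelled libraries (SD, n = 3; −0.46 ± 0.06, adjusted p = 1.67e-06). Eif2s1 encodes the alpha subunit, the one that stress kinases phosphorylate, and averaged 149 ± 9.67 CPM in SAE-labelled and 138 ± 2.38 CPM in CTL-labelled libraries (0.09 ± 0.06, adjusted p = 0.258). All 3 SAE-labelled values of Eif2s1 lay above the CTL-labelled ones, but only just. Eif2s3y, the Y-linked gamma copy, had 16, 4 and 9 counts in SAE-labelled and 20, 15 and 13 counts in CTL-labelled libraries, and was not called (−0.74 ± 0.42, adjusted p = 0.15). Without SAE replicate 1 its log2 fold was −1.29 and passed the threshold.

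The exchange factor eIF2B was represented by only 2 of its subunit genes. Eif2b2, the beta subunit gene, had 128, 117 and 124 CPM in the SAE-labelled libraries, against 179, 198 and 157 CPM in the CTL-labelled libraries, with no overlap (−0.54 ± 0.07, adjusted p = 3.10e-06). Eif2b1, the alpha subunit gene, had 83, 114 and 122 counts in SAE-labelled and 135, 140 and 126 counts in CTL-labelled libraries and missed the threshold (−0.35 ± 0.15, adjusted p = 0.0542). Its call changed in 3 of 14 alternatives: with limma-voom (−0.36), without CTL replicate 3 (−0.40) and without SAE replicate 3 (−0.44) it passed. Of the kinases that phosphorylate eIF2, Eif2ak1, the haem-regulated kinase gene, was the only one with enough counts. It had 15.8, 17.5 and 17.3 CPM in SAE-labelled against 13.7, 13.9 and 13.1 CPM in CTL-labelled libraries. The values did not overlap, yet the difference did not pass (0.30 ± 0.16, adjusted p = 0.129). Eif2ak2, the RNA-activated kinase gene, had 0 counts in every SAE-labelled library and 7, 7 and 5 counts in the CTL-labelled ones, and lay outside the 33 genes.

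Promoters are shown for the genes in which the largest folds met a RefSeq entry, Eif1b, Eif2b2 and Eif2s3x, and for partners that were not called, Eif1ax and Eif2s1. Each window runs from 250 bases before to 50 bases after the annotated start (RefSeq, GRCm38.p6), 5′ to 3′ on the gene's strand. Capitals mark matches, on either strand, to the motifs searched. Factors of the ETS family bind CCGGAAG. The E-box, which Myc and USF proteins bind, was searched as CACGTG. The YY1 motif was taken as AANATGGC and the TATA box as TATAAA. The cyclic AMP response element (CRE) was searched as TGACGTCA. The element that ATF4 binds with C/EBP partners was searched as TGATGNAAT. Matches that overlap were counted for each motif.
Eif1b, chr9:120492356-120492655, plus strand: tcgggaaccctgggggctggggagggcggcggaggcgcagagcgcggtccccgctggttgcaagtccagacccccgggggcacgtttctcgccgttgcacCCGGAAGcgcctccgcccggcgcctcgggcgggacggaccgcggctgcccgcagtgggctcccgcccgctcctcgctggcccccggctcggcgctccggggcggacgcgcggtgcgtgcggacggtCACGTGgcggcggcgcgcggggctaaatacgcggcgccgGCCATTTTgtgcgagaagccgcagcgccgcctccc
Eif2b2, chr12:85219231-85219530, plus strand: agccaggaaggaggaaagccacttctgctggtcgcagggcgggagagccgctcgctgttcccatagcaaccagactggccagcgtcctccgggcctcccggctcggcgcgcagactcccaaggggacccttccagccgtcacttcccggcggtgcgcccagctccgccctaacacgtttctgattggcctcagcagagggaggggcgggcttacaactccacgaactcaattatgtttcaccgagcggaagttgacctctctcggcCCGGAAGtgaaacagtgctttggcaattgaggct
Eif2s3x, chrX:94212602-94212901, minus strand: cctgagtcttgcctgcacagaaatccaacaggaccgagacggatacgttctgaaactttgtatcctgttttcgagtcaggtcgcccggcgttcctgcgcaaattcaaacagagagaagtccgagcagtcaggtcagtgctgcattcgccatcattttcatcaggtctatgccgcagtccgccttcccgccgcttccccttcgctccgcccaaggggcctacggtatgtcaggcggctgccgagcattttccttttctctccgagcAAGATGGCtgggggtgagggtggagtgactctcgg
Eif1ax, chrX:159371928-159372227, plus strand: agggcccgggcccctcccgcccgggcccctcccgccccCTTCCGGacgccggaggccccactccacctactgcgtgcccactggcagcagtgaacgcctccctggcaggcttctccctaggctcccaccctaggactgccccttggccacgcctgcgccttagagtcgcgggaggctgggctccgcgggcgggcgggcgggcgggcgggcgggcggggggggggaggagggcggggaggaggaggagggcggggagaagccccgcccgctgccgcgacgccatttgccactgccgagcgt
Eif2s1, chr12:78861822-78862121, plus strand: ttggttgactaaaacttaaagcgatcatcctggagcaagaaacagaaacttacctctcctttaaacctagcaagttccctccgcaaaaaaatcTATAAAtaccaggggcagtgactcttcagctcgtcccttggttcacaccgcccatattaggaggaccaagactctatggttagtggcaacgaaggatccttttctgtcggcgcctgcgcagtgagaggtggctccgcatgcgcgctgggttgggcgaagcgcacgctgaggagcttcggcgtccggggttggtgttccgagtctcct
The motif counts cover 24 genes with an entry, 14 called lower and 10 not called. Eif4ebp3 and Eif3j2 were left out of these counts by choice, and the shares over all windows were not limited in this way. The counts are of genes and the percentages are of windows, so the 2 are only roughly comparable. An ETS match was in the windows of 6 of the 14 genes called lower and of 3 of the 10 not called, against 8.86% of all 32851 windows of the same length. The genes called lower with this match were Eif1b, Eif2b2, Eif3c, Eif3g, Eif3l and Eif3m. A YY1 match was in 4 of the 14 (Eif1b, Eif2s2, Eif2s3x and Eif3f) and in 1 of the 10 (Eif2s3y), against 6.05% of all windows. E-box matches were in 2 of 14 and 2 of 10 (7.15% of all windows), and TATA matches in 2 of 14 and 2 of 10 (13.6%). The ATF4 element and the CRE were in the windows of 0 of the 24 genes, and are in 0.965% and 1.79% of all windows. A match is a description of letters and not a binding site.

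The 12 measured genes of eIF3, the scaffold on which the other factors assemble, divided into 7 that fell and 5 that were not called. All but Eif3j2 had a mean of at least 500 counts. Of all genes of that depth 36.5% were called lower, and of all genes tested 23.9%. The fall was largest in Eif3e, with 251, 271 and 281 CPM in the SAE-labelled libraries, against 375, 376 and 380 CPM in the CTL-labelled libraries (−0.50 ± 0.05, adjusted p = 1.32e-08). The SAE-labelled values were 66.6% to 74.5% of the CTL-labelled mean. Eif3l averaged 259 ± 5.38 CPM in SAE-labelled and 351 ± 17.3 CPM in CTL-labelled libraries (SD, n = 3; −0.45 ± 0.05, adjusted p = 8.68e-08). Eif3g, an RNA-binding subunit gene, averaged 204 ± 2.42 CPM in SAE-labelled and 270 ± 19.4 CPM in CTL-labelled libraries (−0.42 ± 0.06). The core subunit gene Eif3b followed at −0.40 ± 0.05. Smaller falls were measured in Eif3f (−0.27 ± 0.04), Eif3m (−0.27 ± 0.06, adjusted p = 0.000619) and the core subunit gene Eif3c (−0.25 ± 0.04, adjusted p = 5.61e-06). In each of the 7 genes that fell, no SAE-labelled value reached the lowest CTL-labelled value. Groups did not overlap in 58.3% of the 12 genes. The shares were 55.7% of all genes tested and 71.3% of those with a mean of at least 500 counts.

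The other eIF3 genes were not called. Eif3a, which encodes the core subunit around which the complex is built, averaged 872 ± 16.5 CPM in SAE-labelled and 898 ± 12.2 CPM in CTL-labelled libraries (SD, n = 3; −0.05 ± 0.04, adjusted p = 0.262), with overlapping values. Eif3i, a WD-repeat subunit gene, averaged 270 ± 7.61 CPM in SAE-labelled and 266 ± 11.9 CPM in CTL-labelled libraries (0.01 ± 0.05, adjusted p = 0.914). Eif3h averaged 355 ± 6.53 CPM in SAE-labelled and 381 ± 22.1 CPM in CTL-labelled libraries (−0.11 ± 0.05, adjusted p = 0.0651) and passed only without CTL replicate 1 (−0.16). Eif3j1, which encodes the loosely bound subunit, had a log2 fold of −0.05 ± 0.07 (adjusted p = 0.636). Whether the subunit genes differ from each other in fold was not tested.

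Eif3j2, a copy of Eif3j1 on another chromosome, had a spread of its own. It had 59, 67 and 11 counts in SAE-labelled and 64, 84 and 12 counts in CTL-labelled libraries, so that replicate 3 was low in both groups. The 3 CCLF-labelled columns held 60, 61 and 63 counts. Its log2 fold of −0.24 ± 0.93 (adjusted p = 0.861) became 0.24 without SAE replicate 3 and 0.23 without CTL replicate 2. Eif3j1 had 609 counts in SAE replicate 3 and 549 counts in CTL replicate 3, within the range of 510 to 573 counts of the other 4 libraries for CTL replicate 3 and above it for SAE replicate 3. The sources used here do not say how reads matching both copies were divided.

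**Figure D3:**
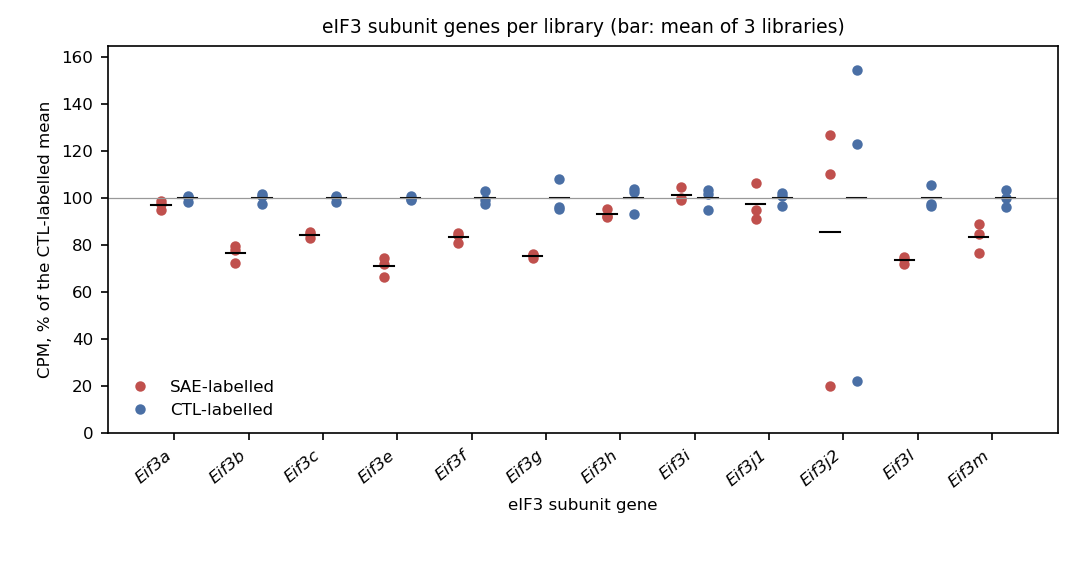
CPM of the 12 eIF3 subunit genes in each library as a percentage of the CTL-labelled mean (red, 3 SAE-labelled libraries; blue, 3 CTL-labelled libraries; black lines, group means). The SAE-labelled points of Eif3b, Eif3c, Eif3e, Eif3f, Eif3g, Eif3l and Eif3m lie below the CTL-labelled points, and replicate 3 of Eif3j2 is low in both groups.

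The eIF4 group, which recognises the cap and unwinds the leader, held the family's largest changes in both directions, both in genes with few counts. Eif4ebp1 encodes 4E-BP1, which binds eIF4E and withholds it from the cap complex until mTORC1 phosphorylates it. It had 4.85, 3.20 and 5.35 CPM in the SAE-labelled libraries, against 16.9, 13.3 and 19.3 CPM in the CTL-labelled libraries, from 23, 15 and 26 counts in SAE-labelled and 78, 64 and 93 counts in CTL-labelled libraries. The groups did not overlap, and the gene fell to 0.270 of its CTL-labelled level (log2 fold −1.89 ± 0.23, adjusted p = 2.64e-07, and −2.03 to −1.69 over the alternatives). Eif4ebp3, a gene of the same family, had 83, 74 and 84 counts in SAE-labelled and 85, 127 and 102 counts in CTL-labelled libraries. Its fall of 0.40 ± 0.16 on the log2 scale (adjusted p = 0.0421) was not called in 9 of 15 alternatives, and without CTL replicate 2 it was −0.25 (adjusted p = 0.255, the highest of the alternatives). Leaving out any 1 of the SAE replicates also ended that call, at −0.41, −0.34 and −0.41 without SAE replicates 1, 2 and 3.

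Eif4e3, which encodes a divergent member of the cap-binding eIF4E family, was the 1 gene that rose. It had 5.27, 7.68 and 9.46 CPM in the SAE-labelled libraries, against 3.26, 2.70 and 3.73 CPM in the CTL-labelled libraries, from 25, 36 and 46 counts in SAE-labelled and 15, 13 and 18 counts in CTL-labelled libraries. The groups did not overlap (2.29-fold, log2 fold 1.19 ± 0.29, adjusted p = 0.00145). Of its counts, 87.7% stood on a single predicted transcript of the 4 in RefSeq, so the fold may not stand for the whole gene.

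The helicase and its cofactors were measured in part. Eif4b, which encodes the cofactor that stimulates the helicase eIF4A, had 983, 969 and 1024 CPM in the SAE-labelled libraries, against 1302, 1293 and 1359 CPM in the CTL-labelled libraries. All SAE-labelled values were lower (−0.42 ± 0.04, adjusted p = 1.72e-09). Eif4a3, whose protein is a helicase of the exon junction complex rather than of cap-dependent initiation, had 203, 191 and 199 CPM in SAE-labelled against 270, 257 and 249 CPM in CTL-labelled libraries (−0.40 ± 0.06, adjusted p = 1.84e-06). Eif4h, a gene of an Eif4b-like cofactor, had 12, 8 and 10 counts in SAE-labelled and 7, 14 and 23 counts in CTL-labelled libraries and was not called (−0.56 ± 0.41, adjusted p = 0.277). Eif4g2, which encodes the scaffold DAP5 used in cap-independent initiation, had 5.06, 2.77 and 4.53 CPM in SAE-labelled against 7.17, 3.94 and 5.39 CPM in CTL-labelled libraries, with overlap (−0.42 ± 0.30, adjusted p = 0.269).

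**Figure D4:**
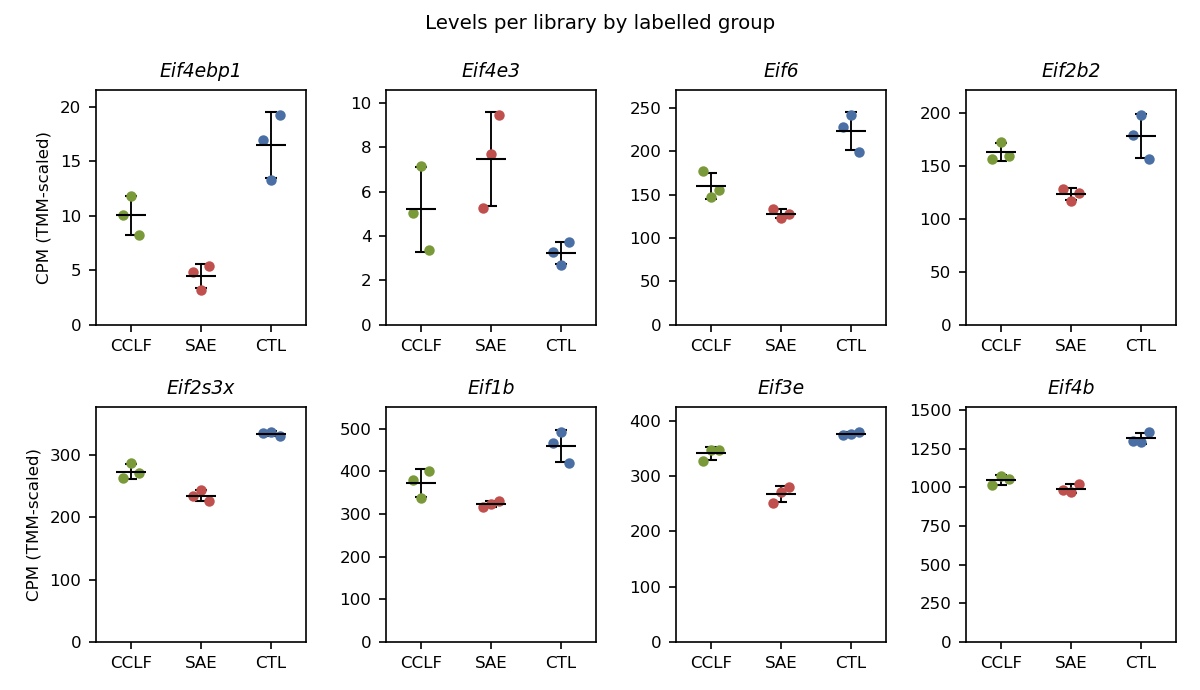
CPM of 8 initiation factor genes in each library (points) with the mean and SD of 3 libraries (black), for the CCLF-labelled, SAE-labelled and CTL-labelled groups; the vertical axes start at 0 and differ between panels. Eif4e3 is higher and the other 7 genes are lower in SAE-labelled than in CTL-labelled libraries, and the CCLF-labelled means lie between.

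At the last step of initiation, eIF5 makes eIF2 hydrolyse its GTP, eIF5B joins the subunits and eIF6 guards the free large subunit. Eif6 fell most among the genes with at least 500 counts, with 134, 124 and 127 CPM in the SAE-labelled libraries, against 228, 242 and 199 CPM in the CTL-labelled libraries. The groups did not overlap (0.570 of the CTL-labelled level, log2 fold −0.81 ± 0.07, adjusted p = 7.72e-10). Eif5b had 394, 382 and 405 CPM in SAE-labelled against 446, 426 and 422 CPM in CTL-labelled libraries. This was the smallest fall that was called (−0.14 ± 0.05, adjusted p = 0.0124), and it no longer passed without CTL replicate 1 (−0.12), SAE replicate 1 (−0.13) or SAE replicate 2 (−0.11). Eif5 had 38, 52 and 36 counts in SAE-labelled and 46, 56 and 56 counts in CTL-labelled libraries and was not called (−0.34 ± 0.21, adjusted p = 0.186).

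The family was not measured whole. Of the 57 symbols, 24 had a mean under 10 counts, 22 of these have several RefSeq transcripts, and 8 had 0 counts in all 9 libraries. Among the 8 are Eif4a1 and Eif4a2, the helicase genes of the cap complex, Eif4g1, its scaffold gene, and Eif2ak4, the kinase gene of the amino acid response. A count of 0 in these libraries allows up to 0.613 to 0.648 CPM (3 counts of the library total, counting error only). Eif4a2, Eif4g1 and Eif2ak4 have 16, 19 and 7 RefSeq transcripts, and a 0 in this table does not show that the gene is silent. Just inside the limit were Eif4h (mean 12.3 counts) and Eif2s3y (12.8), and just outside Eif1a (9.67) and Eif4e (8.83), the gene of the cap-binding protein itself. Of the 33 genes, only Eif2s3y had a mean under 10 counts in a single group, the SAE-labelled one, and all 33 passed the low-count filter.

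The CCLF-labelled mean lay between the SAE-labelled and CTL-labelled means in 29 of the 33 genes and in all 19 that were called, as it did in 83.5% of all genes tested and in 99.1% of all genes called. The exceptions were Eif3h, Eif3i, Eif3j1 and Eif3j2. The 33 genes summed to 9672, 9223 and 9396 CPM in the CCLF-labelled libraries, against 8542, 8580 and 8739 CPM in the SAE-labelled libraries. Against the SAE-labelled libraries 8 of the 33 were called higher and 0 lower by edgeR (16 higher and 0 lower at an unadjusted p under 0.05, and 0 lower with DESeq2 and limma-voom), where 5.43% of the 7986 genes tested were called higher and 2.91% lower. They were Eif2b2 (0.41 ± 0.06), Eif3e (0.36 ± 0.05), Eif3g (0.25 ± 0.04), Eif4ebp1 (1.17 ± 0.22), Eif3l (0.22 ± 0.05), Eif2s3x (0.23 ± 0.05), Eif6 (0.33 ± 0.07) and Eif4a3 (0.20 ± 0.05), as log2 folds. Eif4ebp1 had 10.1, 11.8 and 8.22 CPM in the CCLF-labelled libraries, against 4.85, 3.20 and 5.35 CPM in the SAE-labelled ones. Eif6 had 177, 148 and 155 CPM in the CCLF-labelled libraries, against 134, 124 and 127 CPM in the SAE-labelled ones. This comparison shares its SAE-labelled libraries with the one above. The low spread of the CCLF-labelled columns was measured for genes with a mean of 5 to 500 counts. Of the 8 called genes only Eif4ebp1 is of that kind, with 48, 56 and 39 counts in the CCLF-labelled libraries. The others have more counts, where the spread was not measured by count class, so they are not shown to be free of it. Among them, Eif3g had 1146, 1133 and 1158 counts in the CCLF-labelled libraries, and Eif6 had 840, 701 and 737. The number of calls came to 3, 1 and 2 without SAE replicates 1, 2 and 3, and to 5 without CCLF replicate 3.

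The counts of other gene lists stand against the 23.7% higher and 23.9% lower over all genes tested. Among genes that work beside the initiation factors, of 13 tested of 31 partner genes 6 rose and 0 fell in the SAE-labelled libraries by edgeR (median log2 fold −0.10), and 1 was lower at an unadjusted p under 0.05. Mknk1 had 48, 58 and 34 counts in SAE-labelled and 15, 14 and 6 counts in CTL-labelled libraries. Paip2 had 25, 25 and 24 against 15, 9 and 14. Both passed the low-count filter only through the SAE-labelled libraries, so that they were higher is no separate result. Ncbp2, a nuclear cap-binding gene, averaged 185 ± 4.99 CPM in SAE-labelled and 96.9 ± 7.53 CPM in CTL-labelled libraries (SD, n = 3; 0.92 ± 0.07, adjusted p = 4.19e-11). Dhx29, which encodes a helicase for structured leaders, rose by 0.65 ± 0.07, Pdcd4, the gene of an eIF4A inhibitor, by 0.85 ± 0.14, and Mknk1, a kinase gene for eIF4E, by 1.97 ± 0.31. Of 14 tested of 22 elongation, termination and related modification genes 4 rose and 4 fell (median −0.02), which is close to those shares. The elongation factor genes Eef1g (0.45 ± 0.04) and Eef1a2 (0.28 ± 0.03) and the diphthamide gene Dph1 (0.42 ± 0.10) rose, and Eef1a1 fell by 0.14 ± 0.03 on the log2 scale.

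Of 19 tested of 30 genes of the stress response around eIF2 phosphorylation, 3 rose and 9 fell (median −0.29). Trib3, among the 9, had 4, 0 and 3 counts in SAE-labelled and 25, 16 and 21 counts in CTL-labelled libraries. Trib3 passed the low-count filter only through the CTL-labelled libraries, so its fall is no separate result. Ppp1r15a, which encodes the phosphatase subunit that reverses the phosphorylation, averaged 57.3 ± 0.450 CPM in SAE-labelled and 106 ± 3.60 CPM in CTL-labelled libraries (SD, n = 3; −0.89 ± 0.08, adjusted p = 1.76e-09). The stress genes Nupr1 (−1.34 ± 0.15) and Atf3 (−2.14 ± 0.25) fell as well. Phgdh, the gene of the entry enzyme of serine synthesis, rose by 1.07 ± 0.06, and the other genes that rose, Ddit3 (1.11 ± 0.18) and Sars (0.72 ± 0.25), are named after their values were seen. Atf4, the central transcription factor gene of this response, was not tested, at 1 to 5 counts in each of the 9 libraries. Of 19 tested of 34 mTORC1 genes 3 rose and 7 fell (median −0.05). Nprl3, among the 7, had 7, 11 and 5 counts in SAE-labelled and 19, 33 and 20 counts in CTL-labelled libraries. Nprl3 also passed the filter only through the CTL-labelled libraries, so its fall is no separate result. Ddit4l, the gene of an mTORC1 inhibitor, rose by 1.07 ± 0.15, at 34.3 ± 6.17 CPM in SAE-labelled and 16.2 ± 1.69 CPM in CTL-labelled libraries (SD, n = 3). Its paralog Ddit4, named after its value was seen, fell by 0.86 ± 0.10, at 264 ± 40.5 CPM in SAE-labelled and 475 ± 15.5 CPM in CTL-labelled libraries. Rps6, the gene of the ribosomal protein that the pathway phosphorylates, fell by 0.28 ± 0.04, Rragc, an amino acid sensing GTPase gene, by 0.32 ± 0.05, and Ppm1g, a phosphatase gene, by 0.32 ± 0.05 on the log2 scale. Protein levels and phosphorylation were not measured in these libraries.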

How the data were processed

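The authors' deposited table holds whole-number counts per RefSeq transcript for 9 hippocampus libraries made, per the labels' protocols, from rRNA-depleted total RNA. Per the submitters' processing notes fastp and Salmon were used. The sources used here give no version, setting, index, strand use or genome build. All 120312 transcripts were matched to symbols with the RefSeq table of GRCm38.p6 (names only) and summed to 38911 genes. Genes with several RefSeq transcripts often hold few counts in this table, so their values may not stand for the whole gene.

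SAE-labelled and CTL-labelled libraries (3 each), and CCLF-labelled and SAE-labelled libraries, were fitted separately with edgeR 4.0.16 (filterByExpr by group, trimmed mean of M values, robust quasi-likelihood F test, Benjamini-Hochberg adjustment over all genes tested, called under 0.05). SE is |log2 fold|/√F. CPM carries scaling factors from all 9 libraries. Values of each library are given for called genes with a log2 fold of at least 0.5 in size and for the smallest p in each complex, and some others are added. From each pathway list up to 4 called genes with the smallest p are named, and those beyond it were chosen after values were seen. The genes and lists were chosen with earlier results of these data known. Alternatives were DESeq2 1.42.0 (size factors, Wald test), limma-voom (limma 3.58.1), no filter, all 9 libraries, a replicate block, the highest transcript per gene, thinning, other member limits, each library left out and, added after seeing the data, genes with 1 RefSeq transcript. The steps were tested on simulated data in R 4.3.3. Replicate numbers were not used to pair the libraries, except in the replicate block.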

Additional observations from a re-analysis of the deposited data

How the results depend on the processing

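Of the 33 initiation factor genes, 17 were called in every setting and 11 in none. The count of calls in SAE-labelled against CTL-labelled libraries was 19 as reported and 17 to 20 with each library left out in turn. It was 18 with the DESeq2 Wald test, 18 with no filter, 17 among genes with 1 RefSeq transcript (added after seeing the data), and 19 or 17 with a mean of at least 5 or 50 counts. Over all genes 3912 calls became 3543 to 3932 with a library left out, 4318 with all 9 libraries, and 2565 among genes with 1 transcript, where fewer genes were tested. For CCLF-labelled against SAE-labelled libraries the 8 called initiation factor genes became 5 with the DESeq2 Wald test, 12 with no filter and 1 to 9 with a library left out, and 666 calls over all genes became 154 to 698. The cause was not tested.

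The log2 fold of Eif1ax, 0.00 as reported, was −0.0015 with DESeq2 size factors, −0.0015 with the DESeq2 Wald test, and −0.012 to 0.038 with a library left out. With a library left out Eif3i ran from −0.027 to 0.033, Eif3j1 from −0.11 to 0.012 and Eif3j2 from −0.72 to 0.24. Each of these genes was uncalled in every setting.

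Across genes, deviations of same-numbered SAE-labelled and CTL-labelled libraries correlated at 0.036, −0.026 and 0.061. These low values do not settle whether the replicate numbers mark pairs, and Eif3j2 was low in replicate 3 of both groups. With a replicate block 18 initiation factor genes and 3892 genes in all were called in SAE-labelled against CTL-labelled libraries, and 8 and 732 in CCLF-labelled against SAE-labelled libraries.

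At this depth genes with few counts, such as Eif4h, Eif2s3y and Eif4g2, had standard errors of 0.30 to 0.42 on the log2 scale, and log2 folds of −0.56, −0.74 and −0.42 in these genes were not called.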
